A study of Mus musculus with 64 samples.

Results

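The genes described here are 9 genes that carry or set hepatic glucose production, glycolysis and glycogen turnover, namely Pck1, G6pc, Fbp1, Ppargc1a, Pklr, Pfkfb1, Pfkfb3, Gys2 and Pygl. They were chosen by symbol among the 55573 gene IDs of the liver table, with earlier results of these data known. All 9 were measured and passed the filter on low counts, as did 12273 gene IDs in all. Livers came from 20 adult male mice of 10 to 18 weeks, 5 in each of 4 groups, from a study of corticosterone (CORT) in Angelman syndrome (AS). All mice were F1 hybrids of C57BL/6J and 129sv parents. WT mice carried 2 intact Ube3a alleles, and AS littermates had inherited from the mother an allele lacking a Ube3a exon, which removes the ubiquitin ligase UBE3A from neurons, whereas liver also uses the paternal copy. In each genotype, CORT mice carried a subcutaneous pellet with 20 mg CORT and 80 mg cholesterol and vehicle mice a pellet of cholesterol only. Pellets stayed for 5 days with free access to food, and livers were collected on day 6. The 4 groups are called WT vehicle, WT CORT, AS vehicle and AS CORT.

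In the fasted liver, glucose is made from lactate, amino acids and glycerol by gluconeogenesis, in which phosphoenolpyruvate carboxykinase (Pck1), fructose-1,6-bisphosphatase (Fbp1) and glucose-6-phosphatase (G6pc) are the committed steps and the coactivator PGC-1α (Ppargc1a) supports their transcription. In the fed liver, glucose is burned through liver pyruvate kinase (Pklr), with the bifunctional PFKFB enzymes setting the level of fructose 2,6-bisphosphate, which drives glycolysis and restrains Fbp1, and is stored by glycogen synthase (Gys2) until glycogen phosphorylase (Pygl) releases it. Glucocorticoids, which act on the glucocorticoid receptor (GR), are known to raise hepatic glucose output and glycogen stores.

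Promoter sequences were found in the RefSeq table for 8 of the 9 genes, as 13 entries of 300 bases from 250 before to 50 after a start site on build GRCm38.p6. Gys2 had none. The promoters below are of genes that differed between CORT and vehicle livers or between livers, with G6pc for contrast, and are written from 5′ to 3′ on the strand of the gene. Capitals mark letters of the motifs searched on both strands, which were the GR half-site AGAACA, the cAMP response half-site ACGTCA, the insulin response core CAAAACA, the E-box CACGTG, the carbohydrate response half-site CACGGG, the D-box TTATGTAA and the TATA box TATAAA.
Pck1, chr2:173152823-173153122, plus strand: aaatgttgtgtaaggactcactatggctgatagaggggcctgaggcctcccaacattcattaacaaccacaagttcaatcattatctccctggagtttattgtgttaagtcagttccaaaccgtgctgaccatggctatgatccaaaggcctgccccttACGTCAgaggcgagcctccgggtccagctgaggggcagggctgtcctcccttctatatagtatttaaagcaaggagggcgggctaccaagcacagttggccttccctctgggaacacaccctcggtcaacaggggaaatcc
G6pc, chr11:101367466-101367765, plus strand: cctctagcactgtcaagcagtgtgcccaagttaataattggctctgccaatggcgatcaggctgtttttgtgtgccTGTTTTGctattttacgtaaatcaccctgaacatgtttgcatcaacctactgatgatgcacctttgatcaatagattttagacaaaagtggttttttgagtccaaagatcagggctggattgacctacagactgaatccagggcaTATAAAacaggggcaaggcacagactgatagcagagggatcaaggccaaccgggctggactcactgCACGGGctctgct
Pklr, second of 2 starts, chr3:89136373-89136672, plus strand: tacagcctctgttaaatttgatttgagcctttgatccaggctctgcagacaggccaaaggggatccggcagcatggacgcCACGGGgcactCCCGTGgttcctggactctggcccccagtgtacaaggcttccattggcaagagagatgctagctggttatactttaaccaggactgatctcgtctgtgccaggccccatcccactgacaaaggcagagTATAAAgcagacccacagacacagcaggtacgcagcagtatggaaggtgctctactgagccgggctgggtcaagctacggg
Pfkfb3, second of 2 starts, chr2:11502041-11502340, minus strand: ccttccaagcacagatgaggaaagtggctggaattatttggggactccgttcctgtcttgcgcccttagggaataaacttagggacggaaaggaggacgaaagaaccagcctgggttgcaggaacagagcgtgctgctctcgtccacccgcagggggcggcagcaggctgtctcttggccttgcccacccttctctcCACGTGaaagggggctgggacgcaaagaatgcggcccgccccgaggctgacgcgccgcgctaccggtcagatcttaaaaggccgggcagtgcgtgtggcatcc
Pygl, chr12:70227634-70227933, minus strand: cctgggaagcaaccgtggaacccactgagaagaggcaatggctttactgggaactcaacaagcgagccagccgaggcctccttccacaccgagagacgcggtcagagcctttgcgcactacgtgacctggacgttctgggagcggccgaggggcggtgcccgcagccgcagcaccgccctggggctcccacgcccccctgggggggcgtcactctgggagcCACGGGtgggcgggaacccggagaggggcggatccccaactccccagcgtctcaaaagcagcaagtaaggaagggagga

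The second Pklr promoter held CACGGG on each strand, the first copy beginning 170 bases and the second 159 bases before the start. This motif was in 4 of the 13 entries, those of G6pc, Pklr, Pygl and Pfkfb3, (for Pfkfb3 in the entry not printed), and in 10.1% of all 32851 promoters of the table. The half-site ACGTCA lay 91 bases before the Pck1 start, and also in entries of Ppargc1a and Pfkfb3, against 7.51% of all promoters. The E-box stood only in the printed Pfkfb3 entry among the 13, beginning 53 bases before its start, against 7.15% of all promoters, and CAAAACA only in that of G6pc, against 6.28%. The GR half-site and the D-box were in none of the 13 entries, against 18.97% and 0.938% of all promoters, and the TATA box was in 3 entries against 13.6%. A match of letters is not a binding site, and these windows do not hold distant enhancers. Pfkfb1 had 4 entries, and counts per gene do not tell which start was used.

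Between 18612550 and 20868924 reads per liver were counted on genes, so that 3 counts corresponded to 0.144 to 0.161 CPM (the reads of a gene scaled to a common library size, with TMM factors of edgeR), a floor that covers counting error only. Ube3a measured 48.3 ± 4.96 CPM in WT vehicle, 48.8 ± 4.01 in WT CORT, 33.0 ± 4.05 in AS vehicle and 34.9 ± 1.93 in AS CORT livers (SD, n = 5 each), and the labelled genotypes did not overlap. The 6 hepatocyte markers summed to between 94079 and 141688 CPM in every liver, whereas markers of adipocytes and exocrine pancreas summed to at most 1.06 CPM. Of the 7 Kupffer cell markers, 6 were lower with CORT in each genotype, the sum falling from 118 to 159 CPM to 60.2 to 89.9 CPM in WT and from 157 to 220 CPM to 60.8 to 89.4 CPM in AS livers. Of 5 erythroid markers, 2 were lower in WT and 4 in AS livers, with sums of 343 to 574 CPM against 229 to 328 CPM and of 243 to 475 CPM against 124 to 192 CPM. Of 5 endothelial markers 1 and 3 were lower, and of 5 stellate cell markers 0 and 2, with sums that overlapped between vehicle and CORT livers. Fewer cells of a type and less RNA per cell cannot be told apart in whole liver. The share of reads that did not align was also lower with CORT, at 3.20% to 4.77% against 5.39% to 8.93% in WT and 1.49% to 3.23% against 4.52% to 6.68% in AS livers. The part of these differences in the results below was not tested.

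Some livers stood apart within their groups. On 1 surrogate variable, a score of variation that the groups leave unexplained over all genes, WT vehicle mouse 1 (0.36), WT vehicle mouse 2 (0.43) and AS vehicle mouse 1 (0.37) lay far above the other 7 vehicle livers (-0.24 to -0.14). The CORT livers above 0 were WT CORT mouse 1 (0.27), WT CORT mouse 2 (0.02), AS CORT mouse 1 (0.26) and AS CORT mouse 2 (0.24), which left 13 livers below 0, 3 each in WT vehicle, WT CORT and AS CORT and 4 in AS vehicle. Among CORT livers the cut at 0 is not a gap, since AS CORT mouse 5 (-0.03) lay close to WT CORT mouse 2. Genes of the circadian clock moved with this score. Dbp, a transcription factor under clock control, measured 202 to 237 CPM in the 3 vehicle livers and 0.653 to 3.84 CPM in the other 7, and Arntl, the gene of the core clock factor BMAL1, 0.289 to 0.603 CPM against 30.4 to 40.6 CPM. In a list of 16 clock genes written after these data were seen, the 3 livers lay above the other 7 vehicle livers for 9 genes and below them for 5, and 22.3% of all genes tested lay outside in either direction. Of the 9 glucose and glycogen genes, 5 lay above the other vehicle livers (Pck1, Fbp1, Pklr, Gys2 and Pfkfb3) and none below. In each group the livers above 0 had the lowest mouse numbers, which follow the order of the labels. What that order stands for and the hour of collection of each mouse are not given in the sources used here. Their part was not tested. The score itself followed several of the 9 genes over the 20 livers after group means were removed, with r = 0.91 for Pfkfb3, 0.90 for Gys2, 0.83 for Fbp1, 0.66 for Pck1 and 0.63 for Pklr, against -0.19 for Pygl, -0.34 for Ppargc1a, -0.53 for G6pc and -0.55 for Pfkfb1. Tests between groups therefore rest on all 20 livers. Fold changes in the 13 livers below 0 or without the 3 vehicle livers, subsets chosen after seeing the data, are given as a description without their p, and counts of genes past the threshold in these subsets are a description too, since leaving out vehicle livers in which a gene is high raises its fold change by construction.

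**Figure D1:**
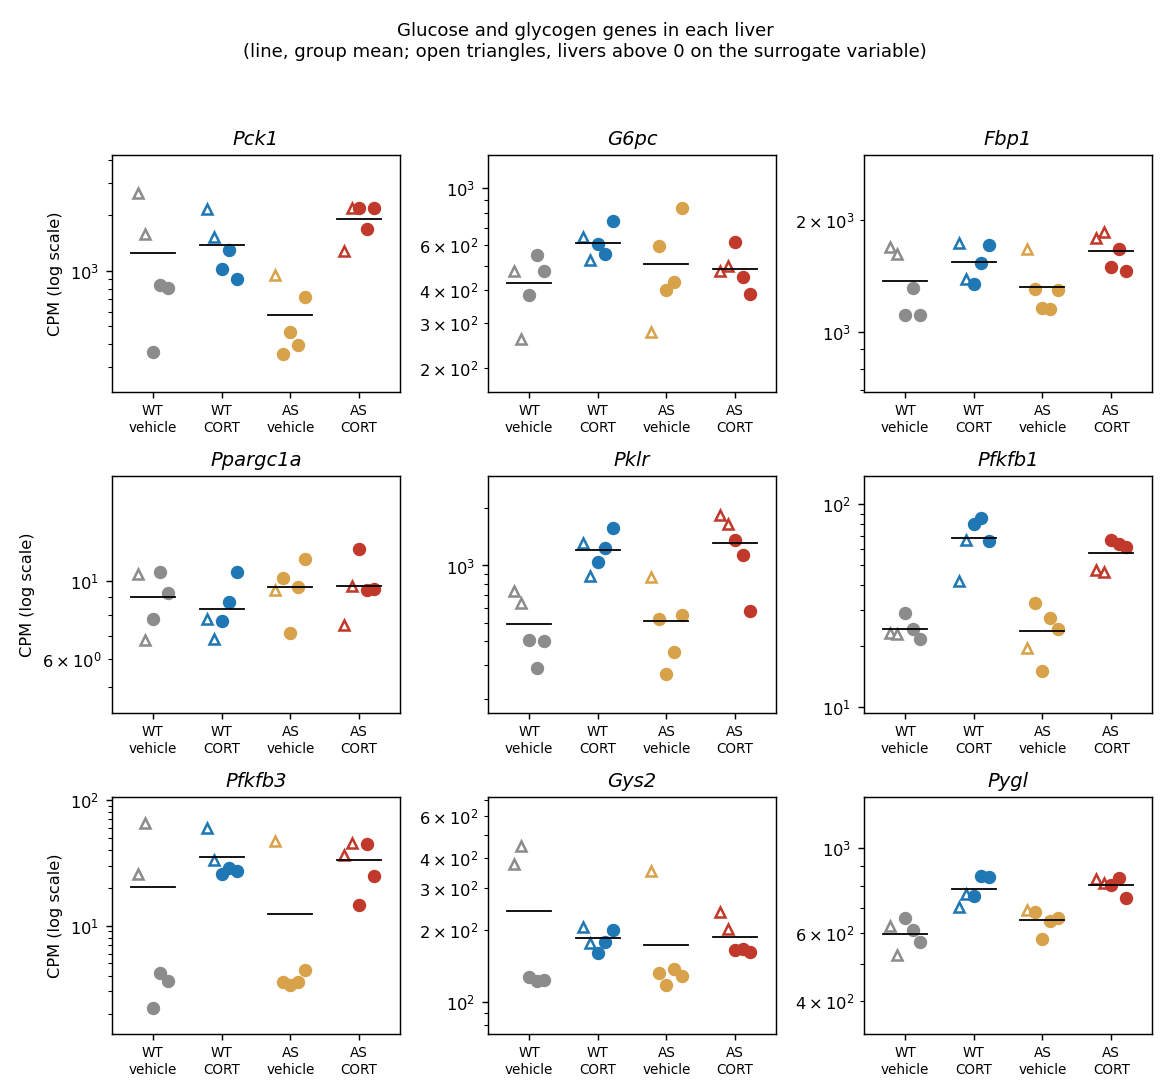
Normalized CPM of each of the 9 genes on a log axis, 1 symbol per liver in the order of mouse number, with the mean of each group of 5 as a line. Open triangles are the livers above 0 on the surrogate variable. The vehicle triangles of Pfkfb3 and Gys2 sit above all other vehicle livers, whereas Pfkfb1 and Pygl separate CORT from vehicle in each genotype with no overlap.

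Expressed per length of exon, as FPKM, in which CPM is divided by exon length in kilobases, the genes spanned a wide range in WT vehicle livers. Fbp1 was highest at 804 ± 160 FPKM, followed by Pck1 at 363 ± 260, G6pc at 178 ± 46.4, Pklr at 153 ± 57.2, Gys2 at 90.0 ± 60.0, Pygl at 86.9 ± 7.52, Pfkfb1 at 6.01 ± 0.723, Pfkfb3 at 2.67 ± 3.57 and Ppargc1a at 1.36 ± 0.252 FPKM (SD, n = 5 each). Ranges of neighbours in this order overlapped in every case other than Pygl and Pfkfb1, although Fbp1 exceeded Pck1 in each of the 5 mice and every Pfkfb1 value exceeded every Ppargc1a value. With CORT, Pklr at 373 ± 81.4 FPKM in WT and 405 ± 151 FPKM in AS livers had a higher mean than G6pc (255 ± 35.1 and 201 ± 34.6 FPKM).

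The first question was which of these genes differed between CORT and vehicle livers. In WT mice 3 of the 9 were higher with CORT (Pfkfb1, Pklr and Pygl) and none lower by edgeR's quasi-likelihood test at an adjusted p of 0.05, whereas over all genes tested 18.6% passed, 8.73% as higher and 9.9% as lower. In AS mice 4 of the 9 were higher (the same 3 genes and Pck1) and none lower, against 27.5% of all genes, 12.6% as higher and 15% as lower. The median log2 fold change of the 9 was 0.38 in WT and 0.33 in AS livers, with medians of -0.0047 and -0.0032 over all genes. Groups did not overlap for 3 of the 9 genes in WT and for 3 in AS livers, against 14.1% and 16.6% of all genes. With the 13 livers below 0 alone, the same fit called 6 of the 9 genes higher in WT (Pfkfb3, Pfkfb1, Pklr, Gys2, Pygl and Fbp1) and 7 in AS livers (these and Pck1), where it called 15.7% and 25% of all genes. Without the 3 vehicle livers alone it called 7 in each genotype, and 19.9% and 34.1% of all genes. Because the livers left out hold the highest vehicle values of 5 of the 9 genes, nothing is read from these higher counts.

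**Figure D2:**
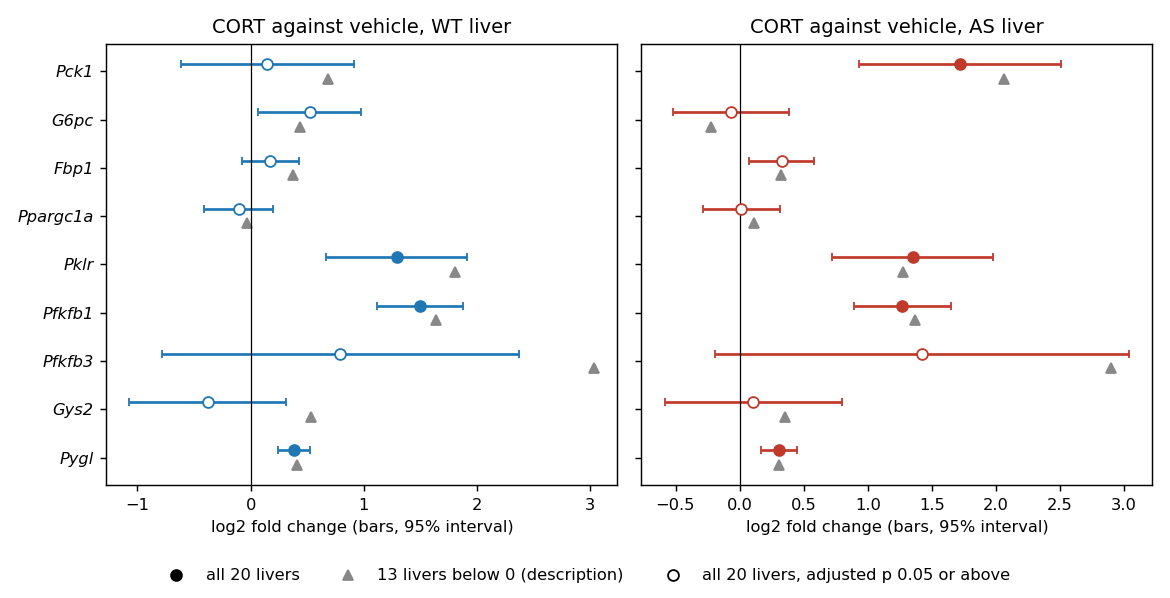
Log2 fold change between CORT and vehicle livers for each gene, in WT (left) and AS mice (right). Circles with bars (95% intervals) are the fit of all 20 livers, open where the adjusted p is 0.05 or above, and small grey triangles are the values in the 13 livers below 0 on the surrogate variable, given as a description. Filled circles mark Pklr, Pfkfb1 and Pygl in both genotypes and Pck1 in AS mice, and the triangles of Pfkfb3 lie furthest from their circles.

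Pck1 (ENSMUSG00000027513, chr2:173153048-173159273, plus strand) encodes the cytosolic enzyme that turns oxaloacetate into phosphoenolpyruvate. It measured 2634, 1583, 362, 837 and 810 CPM in the WT vehicle livers and 2168, 1515, 1019, 1299 and 898 CPM in the WT CORT livers. The CORT values lay within the range of the vehicle values, whose 2 highest belonged to mice 1 and 2, and the log2 fold change was 0.15 ± 0.39 (SE, adjusted p = 0.845). AS vehicle livers held 946, 354, 466, 396 and 719 CPM and AS CORT livers 1275, 2182, 2192, 1683 and 2177 CPM. Here each CORT liver exceeded each vehicle liver, and the log2 fold change was 1.72 ± 0.40 (adjusted p = 0.00317), which is 3.30-fold. The CORT effect in AS minus that in WT mice was 1.57 ± 0.56 and did not pass over all genes (adjusted p = 0.494, interval of the difference 0.48 to 2.66). As a description, the log2 fold change in the 13 livers was 0.68 in WT and 2.06 in AS mice, and without the 3 vehicle livers 1.04 in WT mice.

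G6pc (ENSMUSG00000078650, chr11:101367561-101377903, plus strand) encodes the phosphatase that releases free glucose. Its levels were 478, 258, 383, 548 and 477 CPM in WT vehicle and 645, 525, 605, 556 and 742 CPM in WT CORT livers. In AS mice they were 276, 597, 403, 431 and 839 CPM with vehicle and 475, 498, 617, 451 and 389 CPM with CORT. The highest WT vehicle liver exceeded 1 WT CORT liver, and the AS groups overlapped throughout. Neither difference passed, with log2 fold changes of 0.52 ± 0.23 in WT (adjusted p = 0.129, 95% interval 0.07 to 0.97) and -0.07 ± 0.23 in AS livers (adjusted p = 0.862, interval -0.52 to 0.38). The values in the 13 livers were 0.44 and -0.22.

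Fbp1 (ENSMUSG00000069805, chr13:62864753-62888282, minus strand) encodes the enzyme that opposes phosphofructokinase. WT vehicle livers held 1689, 1618, 1116, 1312 and 1110 CPM and WT CORT livers 1736, 1393, 1345, 1530 and 1713 CPM. AS vehicle livers held 1670, 1305, 1160, 1157 and 1299 CPM and AS CORT livers 1791, 1858, 1493, 1674 and 1458 CPM. In each genotype the vehicle mice apart from the 3 named above lay below every CORT liver. With all livers the log2 fold change was 0.17 ± 0.13 in WT (adjusted p = 0.393) and 0.33 ± 0.13 in AS livers (adjusted p = 0.0634). Other fits of the same 20 livers called it, in WT with the surrogate variable as a covariate (0.25, adjusted p = 0.024) and in AS mice with that covariate (0.22, adjusted p = 0.0383), with limma-voom (0.39, adjusted p = 0.0136) and with DESeq2 (0.34, adjusted p = 0.0426). The covariate was estimated from these same values and followed Fbp1 itself (r = 0.83). In the 13 livers the log2 fold change was 0.37 and 0.33.

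Ppargc1a (ENSMUSG00000029167, chr5:51454250-51567726, minus strand) encodes the coactivator named above. Its mean FPKM was the lowest of the 9 genes in each group, but Pfkfb3 had a lower FPKM than Ppargc1a in 7 of the 10 vehicle livers. The CPM of Ppargc1a ranged from 6.79 to 10.6 with a median of 9.21 in WT vehicle, from 6.83 to 10.6 in WT CORT, from 7.13 to 11.5 in AS vehicle and from 7.49 to 12.3 in AS CORT livers. All groups overlapped, and the log2 fold changes were -0.11 ± 0.15 in WT (adjusted p = 0.706, interval -0.41 to 0.20) and 0.01 ± 0.15 in AS livers (adjusted p = 0.962, interval -0.29 to 0.31).

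Among the glycolytic genes, Pklr (ENSMUSG00000041237, chr3:89136142-89146784, plus strand) measured 737, 638, 406, 291 and 400 CPM in WT vehicle and 1316, 876, 1047, 1229 and 1568 CPM in WT CORT livers. AS vehicle livers held 872, 524, 271, 351 and 553 CPM and AS CORT livers 1831, 1651, 1360, 1136 and 579 CPM. The WT groups did not overlap, and in AS mice only CORT mouse 5 fell below a vehicle liver, that of mouse 1. The log2 fold change was 1.29 ± 0.32 in WT (2.44-fold, adjusted p = 0.00699) and 1.35 ± 0.32 in AS livers (2.55-fold, adjusted p = 0.00352). It was 1.81 and 1.27 in the 13 livers. Pklr shares 711 exon bases with Hcn3 on the other strand, and whether counting used strand is not given in the sources used here.

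Pfkfb1 (ENSMUSG00000025271, chrX:150588229-150643878, plus strand) encodes the liver form of the enzyme that makes and breaks fructose 2,6-bisphosphate. It measured 23.1, 22.9, 29.0, 24.3 and 21.5 CPM in WT vehicle and 41.8, 67.0, 80.2, 86.0 and 65.9 CPM in WT CORT livers. AS vehicle livers held 19.4, 32.7, 14.9, 27.3 and 24.2 CPM and AS CORT livers 47.4, 46.2, 66.9, 63.7 and 61.6 CPM. No vehicle liver reached any CORT liver in either genotype, and the 3 vehicle livers with high Dbp lay among the others. By adjusted p it was the gene of the 9 with the firmest difference, with log2 fold changes of 1.50 ± 0.19 in WT (2.82-fold, adjusted p = 1.73e-05) and 1.27 ± 0.19 in AS mice (2.41-fold, adjusted p = 5.64e-05). In the 13 livers the values were 1.63 and 1.37. It shares 123 exon bases with Apex2 on the other strand.

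Pfkfb3 (ENSMUSG00000026773, chr2:11471433-11554077, minus strand) encodes the form with the strongest kinase activity, which pushes glycolysis forward. Among WT vehicle livers it measured 25.5 and 65.3 CPM in mice 1 and 2 and 2.21, 4.20 and 3.62 CPM in mice 3 to 5. Among AS vehicle livers it was 46.8 CPM in mouse 1 and 3.56, 3.35, 3.58 and 4.41 CPM in the rest. CORT livers held 59.2, 33.4, 25.6, 29.0 and 27.4 CPM in WT and 36.4, 45.7, 14.5, 44.4 and 24.7 CPM in AS mice. Every CORT liver thus exceeded the 7 low vehicle livers, and the 3 high vehicle livers lay within or above the range of the 10 CORT livers. With all livers the log2 fold change was 0.79 ± 0.81 in WT (adjusted p = 0.557) and 1.42 ± 0.82 in AS livers (adjusted p = 0.214). It ranged from 0.50 to 1.97 in WT and from 1.18 to 3.15 in AS livers with 1 liver left out, the highest values being those without WT vehicle mouse 2 and without AS vehicle mouse 1. With limma-voom and quality weights it was 2.24 (adjusted p = 0.00839) and 2.78 (adjusted p = 0.00186), and with the surrogate variable as a covariate 2.09 ± 0.36 (adjusted p = 0.000229) and 1.57 ± 0.36 (adjusted p = 0.00215). Its call thus differed between fits of the same 20 livers. The covariate was estimated from these same values and followed Pfkfb3 itself (r = 0.91), and quality weights can count deviant livers less. These fits are therefore no separate support. As a description, the log2 fold change was 3.03 and 2.90 in the 13 livers.

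**Figure D3:**
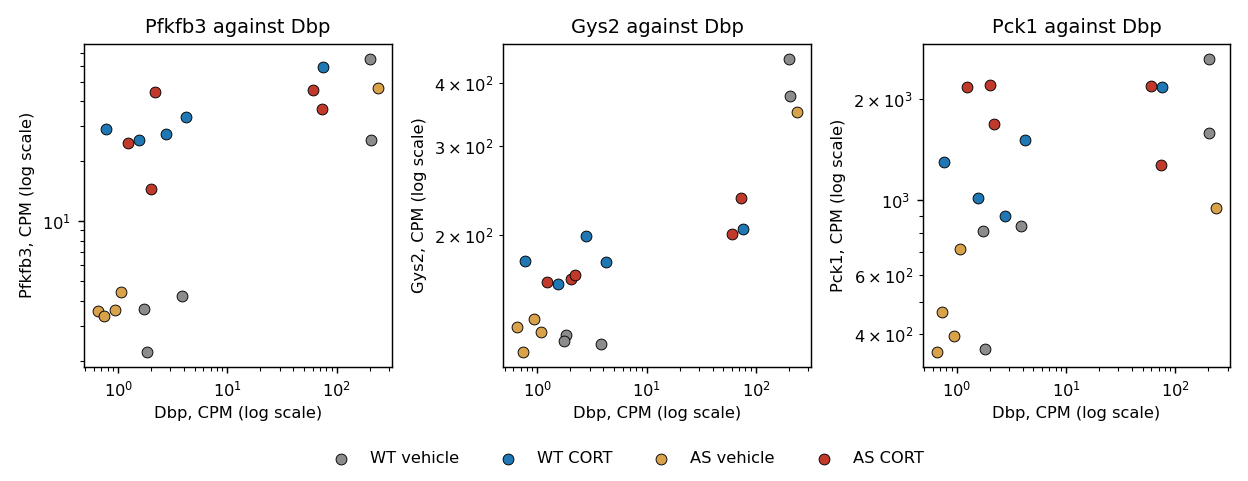
CPM of Pfkfb3, Gys2 and Pck1 against CPM of the clock-controlled gene Dbp, both on log axes, 1 point per liver and colours for the 4 groups. The 3 vehicle livers with Dbp at 202 to 237 CPM hold the 3 highest Gys2 values of all 20 livers, and their Pfkfb3 values lie within or above those of the 10 CORT livers.

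Gys2 (ENSMUSG00000030244, chr6:142422613-142473109, minus strand), the liver glycogen synthase, showed the same division of the vehicle livers. WT vehicle livers held 376, 447, 127, 122 and 124 CPM and AS vehicle livers 350, 132, 118, 136 and 129 CPM. CORT livers lay in between, with 206, 177, 160, 178 and 199 CPM in WT and 237, 201, 164, 167 and 162 CPM in AS mice. Every CORT liver was above the 7 low and below the 3 high vehicle livers. With all livers the log2 fold change was -0.38 ± 0.35 in WT (adjusted p = 0.517) and 0.11 ± 0.35 in AS livers (adjusted p = 0.858). The values in the 13 livers were 0.53 and 0.35. With the surrogate variable as a covariate it was 0.05 ± 0.15 (adjusted p = 0.85) and -0.10 ± 0.15 (adjusted p = 0.652), so its sign changed with how these livers were treated.

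Pygl (ENSMUSG00000021069, chr12:70190811-70231488, minus strand), the liver glycogen phosphorylase, varied least between mice, by 4.81% to 8.65% of the mean within groups. It measured 628, 526, 659, 612 and 571 CPM in WT vehicle and 705, 762, 750, 849 and 844 CPM in WT CORT livers. AS vehicle livers held 689, 680, 581, 647 and 658 CPM and AS CORT livers 832, 810, 805, 837 and 740 CPM. Vehicle and CORT livers did not overlap in either genotype. The difference was small, at 0.38 ± 0.07 in WT (1.31-fold, adjusted p = 0.000604) and 0.31 ± 0.07 in AS mice (1.24-fold, adjusted p = 0.00293), with values of 0.41 and 0.31 in the 13 livers.

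The second question was whether AS and WT livers differed. None of the 9 genes passed between the genotypes with vehicle, where 0.0163% of all genes did, or with CORT, where 0.277% did. None passed for the interaction, for which 0% of all genes did by edgeR, 995 of 12273 having an unadjusted p under 0.05 and 9 passing with DESeq2. At an unadjusted p under 0.05, 1 of the 9 did so with vehicle (Pck1) and 0 with CORT, where 1270 and 1018 of the 12273 genes did, and 1 for the interaction (Pck1), and with DESeq2 none of the 9 passed in any of these 3 comparisons. Pck1 had the largest difference with vehicle, at -1.11 ± 0.40 in AS against WT livers (adjusted p = 0.329), and AS vehicle mice 2 to 5 held 354 to 719 CPM against 362 to 837 CPM in WT vehicle mice 3 to 5. With 1 liver left out the difference ranged from -1.36 without AS vehicle mouse 1 to -0.64 without WT vehicle mouse 1, and among the 13 livers it was -0.47. For Pklr, Pfkfb1 and Pygl, which passed in both genotypes, the intervals of the difference in CORT effect were -0.81 to 0.93, -0.75 to 0.30 and -0.27 to 0.12, which are the differences that these mice leave possible.

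The other genes of the pathways were counted in lists. Of 37 further enzymes and transporters of gluconeogenesis and glycolysis, 33 were tested, of which 14 were higher and 4 lower with CORT in WT and 13 higher and 5 lower in AS livers, against 18.6% and 27.5% of all genes in either direction. These are larger shares than over all genes, as a description of a list that was chosen with earlier results of these data known. Their median log2 fold changes were 0.20 and 0.15, and in the 13 livers the counts were 15 and 3 in WT and 11 and 5 in AS livers (15.7% and 25% of all genes). By the rule of largest mean change among genes that passed in both genotypes, Khk, which phosphorylates fructose, rose from 521 to 981 CPM in WT and from 546 to 1126 CPM in AS livers (log2 0.91 ± 0.13 and 1.05 ± 0.13). Slc37a4, the transporter that brings glucose 6-phosphate to G6pc, rose from 211 to 363 CPM in WT (adjusted p = 0.0269) and from 165 to 410 CPM in AS livers (adjusted p = 0.000444). Hk3, a hexokinase of blood cells, fell from 2.36 to 0.927 and from 3.39 to 1.13 CPM, beside the lower Kupffer cell and erythroid markers given above, whose part was not tested. Aldoc, the aldolase of brain, fell from 18.9 to 11.5 CPM in WT (adjusted p = 0.0258) and from 18.9 to 6.72 CPM in AS livers (adjusted p = 5.87e-05).

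**Figure D4:**
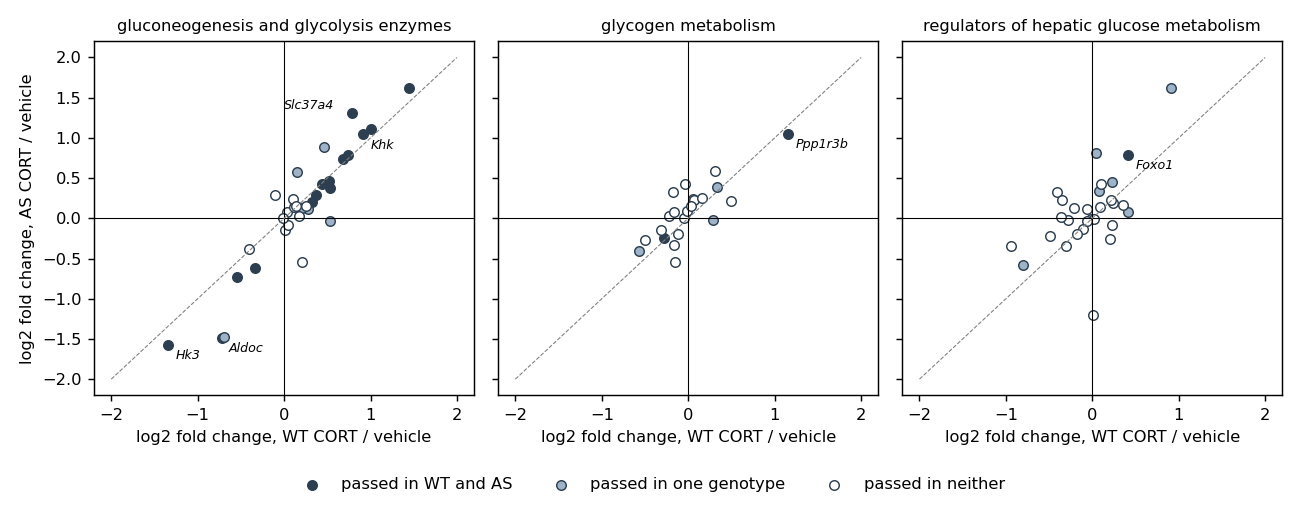
Log2 fold change between CORT and vehicle livers of the other pathway genes, in WT mice on the horizontal and AS mice on the vertical axis, 1 point per gene, with the line of equal change dashed. Dark points passed in both genotypes. The axes share no livers. The enzymes spread furthest, and Ppp1r3b stands alone at the upper end of the glycogen genes.

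Of 27 other genes of glycogen metabolism 22 were tested, and 2 were higher and 2 lower with CORT in WT and 2 higher and 1 lower in AS livers, with medians of -0.04 and 0.09. These shares were no larger than the 18.6% and 27.5% of all genes. Ppp1r3b, a subunit that brings protein phosphatase 1 to glycogen and activates glycogen synthase, rose from 272 to 607 CPM in WT (log2 1.16 ± 0.29, adjusted p = 0.0077) and from 300 to 621 CPM in AS livers (1.05 ± 0.29, adjusted p = 0.0104). Phka2, the liver α subunit of phosphorylase kinase, fell by 0.28 and by 0.24 on the log2 scale. The remaining calls, named after their values were seen, were Gaa (higher) and Pgm2 (lower) in WT and Gbe1 (higher) in AS livers. Within the 13 livers, 5 were higher and 1 lower in WT, and 4 higher and 2 lower in AS livers (15.7% and 25% of all genes).

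All 29 regulators of hepatic glucose metabolism were tested, and 2 were higher and 1 lower in WT and 5 higher and none lower in AS livers, with medians of 0.01 and 0.08. These were smaller shares than the 18.6% and 27.5% of all genes. Foxo1, the factor that insulin removes from the nucleus, rose from 33.9 to 45.2 CPM in WT (log2 0.41 ± 0.11, adjusted p = 0.0108) and from 30.9 to 53.4 CPM in AS livers (0.79 ± 0.11, adjusted p = 2.31e-05). Further calls, named after their values were seen, were Ppargc1b (lower) in WT and Cebpb, Hnf4a, Klf15 and Mlx (higher) in AS livers. Within the 13 livers, 7 were higher and 2 lower in WT, and 7 higher and none lower in AS livers (15.7% and 25% of all genes). No gene of the 3 lists or of the GR targets below passed between genotypes or for the interaction. Of 5 known targets of GR, Fkbp5 (log2 3.43 ± 0.31 in WT and 4.14 ± 0.32 in AS livers) and Tsc22d3 (1.25 ± 0.12 and 1.74 ± 0.12) rose in both genotypes, Tat passed in AS (0.59 ± 0.20, adjusted p = 0.0333) and not in WT livers (-0.05 ± 0.20), and Per1 and Sgk1 passed in neither.

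Periportal and pericentral hepatocytes divide these pathways between them, the first making and the second burning more glucose. Of 5 pericentral markers, 1 was higher and 3 lower with CORT in WT and 2 higher and 1 lower in AS livers, and their sum went from 6638 to 13240 CPM in WT vehicle to 4619 to 6858 CPM in WT CORT livers, and from 5512 to 9419 to 4905 to 7542 CPM in AS livers. Of 5 periportal markers, 1 and 3 were higher and none lower, with sums of 3220 to 3464 and 3316 to 3973 CPM in WT and of 3110 to 3379 and 3416 to 4152 CPM in AS livers. Their part in the results was not tested.

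Lastly, mice of 1 group were compared with each other, gene by gene, after the group mean had been taken from log2 CPM. Over all 20 livers 8 of 36 pairs among the 9 genes passed at an adjusted p of 0.05 by permutation. Of these, 6 lay within Fbp1, Pklr, Gys2 and Pfkfb3, and the others were Pck1 with Pfkfb3 and G6pc with Ppargc1a. Pck1, Fbp1, Pklr, Gys2 and Pfkfb3 were all high in the 3 vehicle livers that stood apart. Taking out group means leaves that division in, so nothing more is read from their pairs. G6pc with Ppargc1a had Pearson r = 0.67 (adjusted p = 0.0139 over 36 pairs) and Spearman rho = 0.73 (adjusted p = 0.00414). Without the 2 livers farthest from the median of G6pc, r was 0.78. As a description, r was 0.86 in the 13 livers below 0 and 0.76 in the 17 livers without the 3 vehicle livers. In these subsets, chosen after seeing the data, 1 pair and 0 pairs passed.

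As a description over the 20 livers, the gene whose centred log2 CPM lay closest was Pitpnm2 for Pck1 (r = 0.93), Unkl for G6pc (0.83), Aqp11 for Fbp1 (0.95), Otud7b for Ppargc1a (0.87), Ttc23 for Pklr (0.93), Pgrmc2 for Pfkfb1 (0.87), Marveld1 for Pfkfb3 (0.96) and Fasn, the fatty acid synthase, for Pygl (0.81). In the 13 livers these r ranged from 0.69 for Pfkfb3 to 0.90 for Pklr. The points share libraries and, over the 20 livers, the division described above, so no p is given.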

How the data were processed

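Stranded mRNA libraries of 20 livers from mice with a pellet were used, and groups were taken from the label of each sample. The authors checked reads with FastQC and MultiQC, ran STAR against mm10 and HTSeq-count for gene counts, which were deposited raw for each liver. The annotation release and the strand setting of counting are not given in the sources used here. Rows that name no gene held 15.4% to 23.3% of reads and were left out. The acute cohort and the hippocampus were not analysed here, and 0 columns of per-sample values belonged to no sample.

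Symbols, positions and exon lengths came from GENCODE M21 on GRCm38 (55480 of 55573 IDs matched). Genes were tested with more than 20 median-of-ratios counts in at least 3 livers of a group. Groups were compared in R 4.3.3 by edgeR 4.0.16 (glmQLFit and glmQLFTest), with TMM normalization, 1 coefficient per group and all 20 livers, adjusted by Benjamini-Hochberg over all genes tested, with 0.05 as the threshold. Standard errors are the fold change over the root of F, and 95% intervals are unadjusted. Centred log2 CPM used a prior count of 2, and pairs were tested by 100000 permutations within groups. Alternatives were DESeq2 1.42.0, its size factors in edgeR, upper-quartile scaling, no filter, 1 surrogate variable from sva 3.50.0, limma-voom with sample weights (limma 3.58.1), only the groups compared, and each liver left out. Mice of a group differed by a chi-square of 15.9 to 79.9 per degree of freedom, so no library was counted as a duplicate. Scripts were tested on simulated data.

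The members and lists were chosen with earlier results of these data known. The text names the 9 members, up to 6 genes of each list with the largest mean change among those past the threshold in both genotypes, list genes past it between genotypes, the gene closest to each member, 5 GR targets and Ube3a. Some genes that these rules name are not reported here, though list counts include them. The clock list and the subsets of livers were added after seeing the data.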

Additional observations from a re-analysis of the deposited data

Results flagged for a closer look

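Of 36 sets of 5 livers (9 genes in 4 groups), 4 had a highest mouse whose gap to the next exceeded 0.71 of the range, where chance gives about 1 in 20. AS vehicle mouse 1 was flagged for Pfkfb3 (46.8 CPM, next 4.41), Gys2 (350 CPM, next 136) and Fbp1 (1670 CPM, next 1305), which are not independent flags since they come from 1 mouse. WT CORT mouse 1 was flagged for Pfkfb3 (59.2 CPM, next 33.4). Both mice lie above 0 on the surrogate variable. In WT vehicle livers, where 2 mice were high, this measure flags neither.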

How the results depend on the processing

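Pfkfb1, Pklr and Pygl in both genotypes and Pck1 in AS livers kept their direction and passed in all 133 refits that bear on them. The count of the 9 genes past the threshold in WT livers, 3, became 5 with 1 surrogate variable, 7 without the 3 vehicle livers and 6 in the 13 livers below 0, and the count in AS livers, 4, became 7 in both of these subsets, which leave out livers where 5 of the genes are high. It was 6 with 1 surrogate variable, 6 with limma-voom and 5 with DESeq2 in AS livers, and 4 with limma-voom in WT livers. With each liver left out it was 3 in WT and 4 to 6 in AS livers, and 0 in every fit for both genotype comparisons and the interaction, so no alternative run made a member pass there. The count of 6 came without AS vehicle mouse 1, the highest AS vehicle liver for Fbp1 and Pfkfb3. Their log2 fold changes in AS livers were then 0.43 and 3.15, which leaving out that liver raises by construction, so no p is given. Pairs that passed, 8 over all livers, numbered 6 to 11 with 1 liver left out, 0 without the 3 vehicle livers and 1 in the 13. Gys2 in WT livers turned from -0.38 to 0.060 with limma-voom, 0.048 with the surrogate variable, 0.57 without the 3 vehicle livers and 0.53 in the 13, and in AS livers to -0.10 with the surrogate variable. G6pc in AS livers turned to 0.10 with the surrogate variable and Ppargc1a to -0.026 with upper-quartile scaling. With 1 liver left out, in WT livers Pck1 ranged from -0.087 to 0.62, Gys2 from -0.54 to -0.025 and Fbp1 from 0.11 to 0.26, and in AS livers G6pc ranged from -0.22 to 0.19, Ppargc1a from -0.084 to 0.097 and Gys2 from -0.0051 to 0.53. The cause of these changes was not tested. Under upper-quartile scaling, genes that passed were higher and lower in numbers of 886 and 1438 in WT (1071 and 1215 with TMM) and of 1195 and 2122 in AS livers (1544 and 1836), with all members that passed still higher. No paired analysis was possible because the labels give the livers no replicate numbers that match between groups. With DESeq2, 44 of all genes passed between genotypes with vehicle (2 with edgeR), 93 with CORT (34) and 9 for the interaction (0). All 9 members lay well above the counting floor in every liver.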

Other observations

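Clock genes differed in the CORT livers too, in a narrower range than in the vehicle livers. Dbp measured 75.4 CPM in WT CORT mouse 1, 73.1 in AS CORT mouse 1 and 60.0 in AS CORT mouse 2, and 0.768 to 4.21 CPM in the other 7 CORT livers, against 202 to 237 CPM in the 3 vehicle livers that stood apart. Arntl was 4.31 to 5.03 CPM in these 3 CORT livers and 0.289 to 0.603 CPM in the 3 vehicle livers. Pfkfb3 in CORT livers with low Dbp (14.5 to 44.4 CPM) was above the 7 vehicle livers with low Dbp (2.21 to 4.41 CPM). These values were noticed after the data were seen and were not tested.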
